A study of Bos indicus and Bos indicus x Bos taurus and Bos taurus with 6 samples.

Results

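Whole-blood expression of the uncoupling proteins UCP2 and UCP3 and the ADP/ATP carriers SLC25A4, SLC25A5 and SLC25A6 was compared among 3 cattle breeds. The members were the rows of the deposited count table that carry one of these 5 gene symbols, and each symbol had 1 row among 21698 genes. Blood was drawn from the jugular vein of cows at a single farm in Malaysia, all at a temperature-humidity index of 44.68, a time the design text calls peak heat stress. All 6 libraries share that time, so breeds were compared and heat loads were not. The groups were Kedah-Kelantan (Bos indicus, an indigenous tropical breed labelled heat-tolerant), Brangus (Bos indicus x Bos taurus, a composite labelled intermediate) and Holstein Friesian (Bos taurus, a temperate breed labelled heat-vulnerable). Every cow was an adult female, neither pregnant nor in milk, and the labels give 1 mean age of 4.5 ± 1.2 years and 1 mean weight of 450 ± 15 kg for all groups. Each breed had 2 libraries labelled as biological replicates, while the design text counts 4 cows per breed. How the 4 cows relate to the 2 libraries is not given, so p-values measure the spread between these libraries.

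These 5 genes encode proteins of the mitochondrial inner membrane from the SLC25 carrier family. The ADP/ATP carriers bring ADP into the matrix and take ATP out to the cytosol, and in the presence of fatty acids they also let protons leak back into the matrix. UCP1 of brown fat is the uncoupling protein known to release the proton gradient as heat. UCP2 is widely expressed, above all in cells of the immune system, and has been linked to limits on reactive oxygen species and to the export of metabolites from the matrix. UCP3 and SLC25A4 (ANT1) are best known from skeletal and heart muscle, SLC25A5 (ANT2) from dividing cells, and SLC25A6 (ANT3) from most tissues.

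Total counts per library ranged between 25275377 and 28668857, and the 2 Brangus libraries were the shallowest. Blood cell markers were present in every library, with summed CPM (counts scaled by TMM library size) of 1820 to 2410 for 9 T cell genes, and 7 skeletal muscle and fat genes together reached at most 1.79 CPM. The Holstein Friesian libraries stood apart from each other. Between its replicates 2721 of 10541 genes with a mean count of at least 100 differed over 2-fold, against 34 of 10668 in Kedah-Kelantan and 328 of 10144 in Brangus. Replicate 2 of Holstein Friesian had 5170 CPM of neutrophil, 1130 CPM of monocyte and 164 CPM of B and plasma cell markers, and replicate 1 had 378, 48.9 and 2690 CPM. In bulk blood, more cells of a type and more RNA per cell cannot be told apart.

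UCP2 was the most abundant single row of the family in all 6 libraries. On the per-length scale of the deposited FPKM, UCP2 ranked first among 52 rows of SLC25 carriers and their relatives, with a mean of 413 FPKM over the libraries and a rank between 102 and 294 among all genes. By mean FPKM the next rows were LOC132344463 (described as ADP/ATP translocase 3, 158 FPKM), SLC25A3 (142 FPKM) and MTCH1 (60.1 FPKM). Of the 3 named ADP/ATP carriers, SLC25A6 averaged 57.2 FPKM (rank 5), SLC25A5 56.7 FPKM (rank 6) and SLC25A4 18.9 FPKM (rank 13). LOC132344463 is described as the protein of SLC25A6. In Brangus replicate 1, SLC25A6 (64.39 FPKM) and LOC132344463 (189.4 FPKM) together exceeded UCP2 (220.5 FPKM). SLC25A5 and SLC25A6 did not keep 1 order, since SLC25A6 was the higher of the pair in both Kedah-Kelantan libraries and in Brangus replicate 1, and SLC25A5 was the higher in the other 3 libraries. UCP3 was at or near 0 in all libraries. By breed, UCP2 averaged 463 ± 43.9 FPKM in Kedah-Kelantan, 231 ± 14.9 FPKM in Brangus and 544 ± 437 FPKM in Holstein Friesian (SD, n = 2 each).

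**Figure D1:**
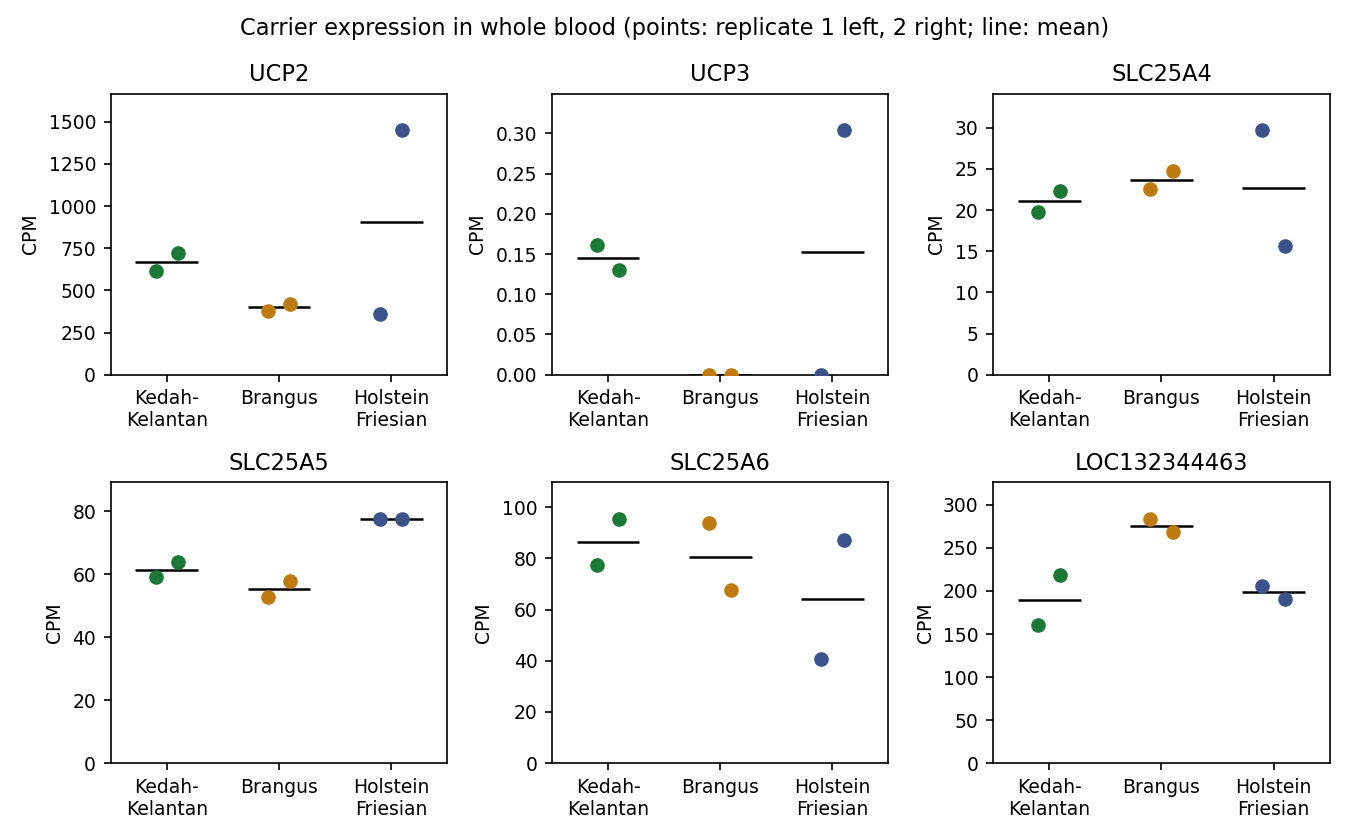
Expression of the 5 carrier genes and of the LOC132344463 copy of SLC25A6 in CPM on linear axes from 0, with 1 point per library and a line at the mean of each breed. The Holstein Friesian points are far apart for UCP2 (359 and 1450 CPM), SLC25A4 and SLC25A6 and nearly coincide for SLC25A5 (77.5 and 77.6 CPM).

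None of the members passed the test in any breed comparison. The test was edgeR's quasi-likelihood F test with Benjamini-Hochberg adjustment over 13455 genes, called at an adjusted p under 0.05, and 4 members had enough counts to be tested. Of all genes tested, 0.00743% were called in Kedah-Kelantan against Holstein Friesian, 0.00743% in Brangus against Holstein Friesian, 0% in Kedah-Kelantan against Brangus and 0% for any breed difference. At an unadjusted p under 0.05, 1 member stood out (SLC25A5, in Brangus against Holstein Friesian), beside 4.04%, 7.62% and 11.6% of all genes in the 3 pairwise comparisons and 8.23% for any breed difference. DESeq2 called no member either, where it called 0.974%, 2.33%, 4.99% and 4.65% of genes in the same 4 tests. A difference that misses the threshold with n = 2 does not show that breeds have like levels. Kedah-Kelantan and Brangus were each compared with the same Holstein Friesian libraries, so those comparisons share their controls.

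UCP2 (chromosome 15, 53409782 to 53416245, minus strand) was higher in Kedah-Kelantan than in Brangus in every library, and the Holstein Friesian libraries lay on both sides of these breeds. It had 617 and 720 CPM in Kedah-Kelantan, 379 and 420 CPM in Brangus, and 359 and 1450 CPM in Holstein Friesian. Its counts were 19186 and 22163 reads in Kedah-Kelantan, 8861 and 9779 reads in Brangus, and 10710 and 38134 reads in Holstein Friesian. Kedah-Kelantan and Brangus libraries did not overlap, and Holstein Friesian replicate 2 was 4.03 times replicate 1. In Kedah-Kelantan against Brangus the log2 fold change was 0.74 (SE 0.63, edgeR adjusted p = 0.681). Non-overlap of these breeds was common: it was found for 64.2% of all genes tested, higher in Kedah-Kelantan for 33.5% and lower for 30.7%. The spread in that fit comes from all 3 breeds. With only Kedah-Kelantan and Brangus in the fit, UCP2 passed with 0.75 on the log2 scale (SE 0.12, edgeR adjusted p = 0.00632), a setting in which 19.3% of 13147 genes passed. In fits of all 3 breeds without Holstein Friesian replicate 1 or replicate 2 the value was 0.75 and 0.74. Those fits take their spread from the same Kedah-Kelantan and Brangus libraries, so they repeat this comparison and add no separate support.

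Against Holstein Friesian the direction of UCP2 depended on the library. With all libraries, the log2 fold change of UCP2 was -0.44 in Kedah-Kelantan (SE 0.63, edgeR adjusted p = 0.995) and -1.18 (SE 0.64, edgeR adjusted p = 0.666) in Brangus. Without Holstein Friesian replicate 2, the value was 0.86 in Kedah-Kelantan and 0.11 in Brangus. Without Holstein Friesian replicate 1 it was -1.11 in Kedah-Kelantan and -1.87 in Brangus. These fits keep 1 Holstein Friesian library and take their spread from the other breeds. They do not measure the spread between Holstein Friesian libraries, so their p-values are not given. On the log2(FPKM + 0.1) scale with limma, the value in Kedah-Kelantan against Holstein Friesian was 0.05 (SE 0.60). For any breed difference, UCP2 had an edgeR adjusted p of 0.749 with all libraries. It was called without Holstein Friesian replicate 1 (with 34.1% of genes called) and without replicate 2 (with 19.9% of genes called). Those calls have the same limit and do not show a breed difference.

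**Figure D2:**
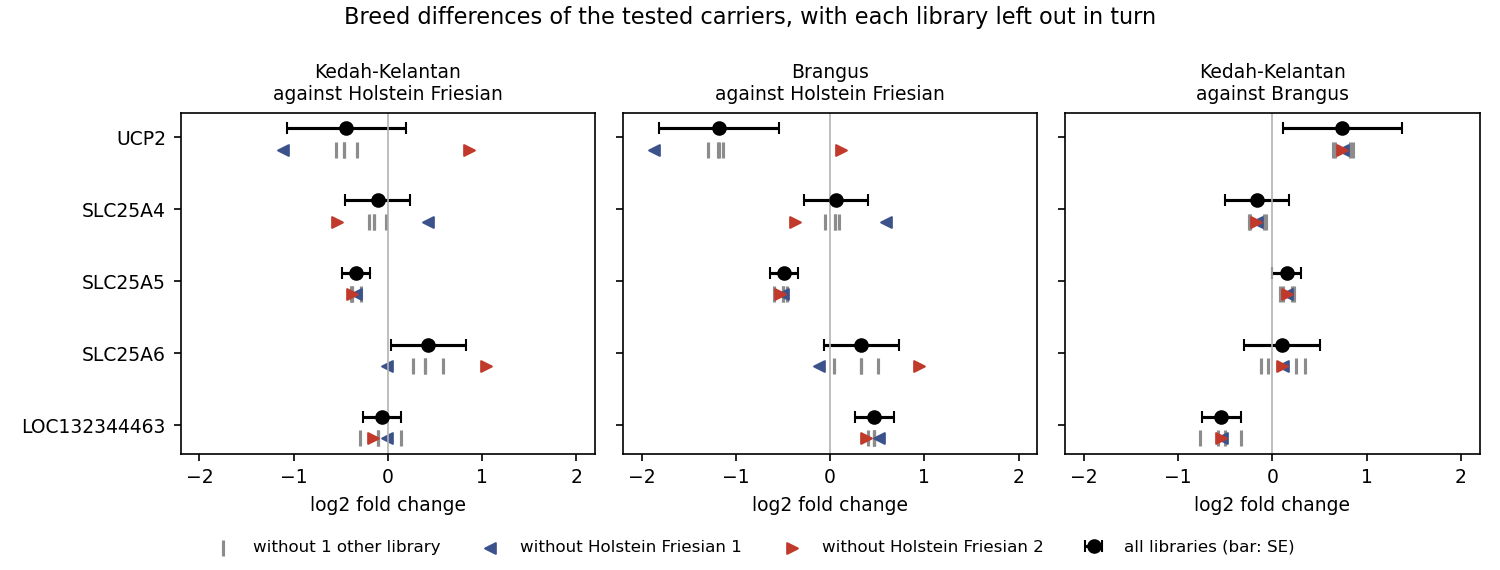
Log2 fold change of the tested members and of the LOC132344463 row in the 3 breed comparisons, positive where the first breed named is higher, with black points and SE bars for all libraries and smaller marks for fits without 1 library. For UCP2 the fits without either Holstein Friesian library fall on opposite sides of 0 in the 2 comparisons with that breed, while those of SLC25A5 in the same comparisons stay between -0.60 and -0.28.

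Between the Holstein Friesian libraries UCP2 differed in the same direction as the sums of neutrophil, monocyte and eosinophil markers. T cell, platelet and erythroid sums were also higher in replicate 2, and NK, gamma delta T and B and plasma cell sums were lower. Between Kedah-Kelantan and Brangus, summed monocyte and eosinophil markers were higher in Kedah-Kelantan in every library, as UCP2 was. So were the 7 NK and cytotoxic lymphocyte markers, at 477 and 514 CPM against 213 and 307 CPM in Brangus. All 7 had log2 fold changes above 0. Summed neutrophil, B and plasma cell, gamma delta T cell, platelet and erythroid markers were lower in Kedah-Kelantan, and T cell sums overlapped. Single markers did not all follow their sum in Kedah-Kelantan against Brangus. There, 3 of 7 monocyte markers and 2 of 6 tested eosinophil, basophil and mast cell markers had log2 fold changes below 0. Of 9 neutrophil markers, 2 were above 0. The 9 neutrophil markers summed to 1410 and 1490 CPM in Kedah-Kelantan, 1670 and 2710 CPM in Brangus, and 378 and 5170 CPM in Holstein Friesian, with LTF at 0 in both Brangus libraries. The 7 monocyte markers summed to 280 and 291 CPM, 208 and 265 CPM, and 48.9 and 1130 CPM in the same order, with none at 0. The 7 eosinophil, basophil and mast cell markers in the table summed to 440 and 456 CPM in Kedah-Kelantan, 46.9 and 42.4 CPM in Brangus, and 41.7 and 1310 CPM in Holstein Friesian. Of these, 6 and 7 had a count in the Kedah-Kelantan libraries, 6 and 4 in the Brangus libraries, and 4 and 6 in the Holstein Friesian libraries, and HDC, the histidine decarboxylase of basophils and mast cells, was at 0 in 5 libraries. Holstein Friesian replicate 2 was the highest library for UCP2 and for the neutrophil, monocyte and eosinophil sums, and replicate 1 was the lowest. B and plasma cell markers were lowest in Holstein Friesian replicate 2. The part of these cells in the UCP2 values was not tested.

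**Figure D3:**
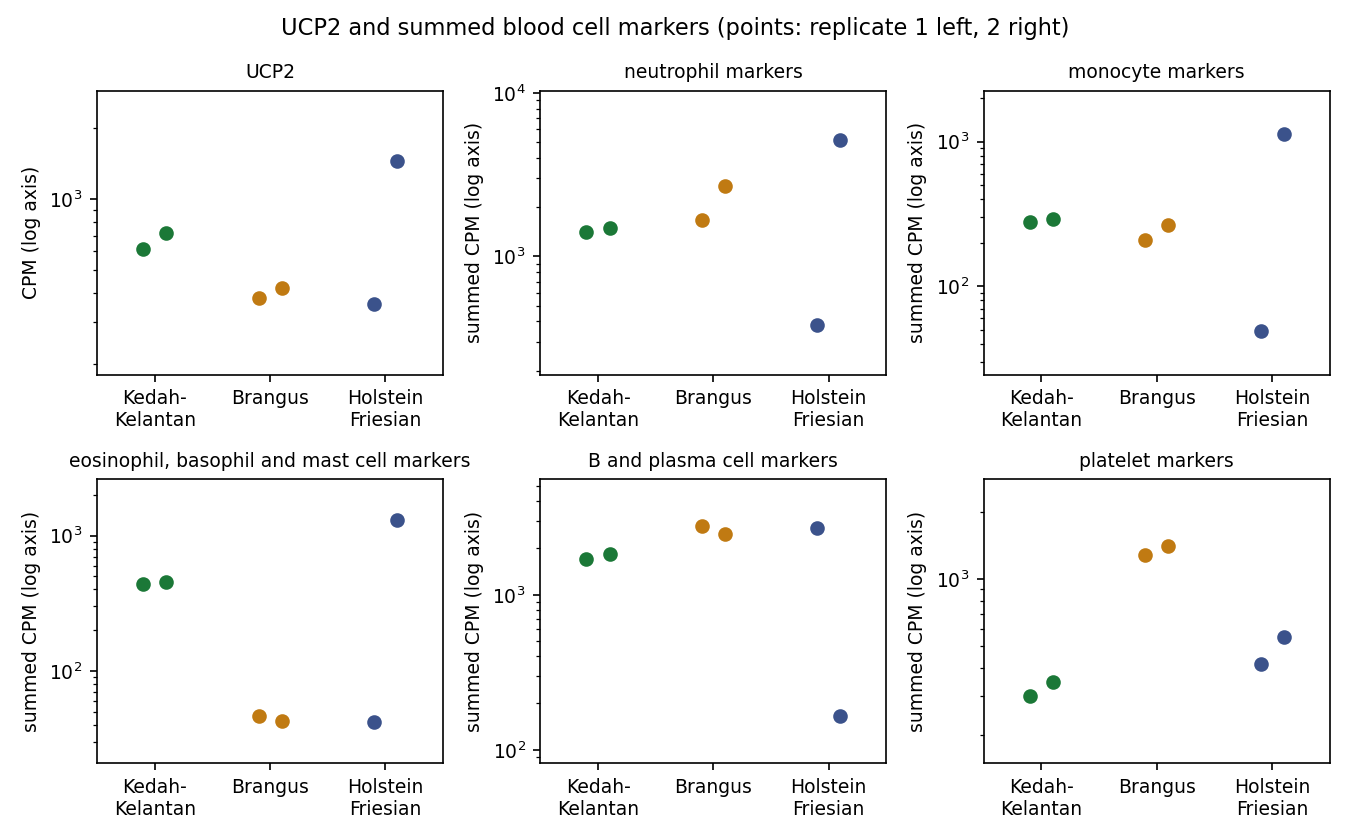
UCP2 in CPM and the summed CPM of 5 blood cell marker lists, on log axes, with 1 point per library. Holstein Friesian replicate 2 is highest for UCP2 and for neutrophil, monocyte and eosinophil markers and lowest for B and plasma cell markers, and platelet markers are highest in Brangus (1280 and 1410 CPM).

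The genes whose pattern over the 6 libraries was most like that of UCP2 were PLOD3, HP and NCK2, with Pearson correlations of log2(CPM + 1) of 0.999, 0.997 and 0.996. PLOD3 modifies lysines of collagen, HP encodes haptoglobin, which binds free haemoglobin, and NCK2 encodes an adaptor of receptor tyrosine kinases. They were the top 3 of 8567 named genes with a mean of at least 10 CPM, the libraries are the same for all genes, and the correlations describe these libraries only. HP had 41.3 and 54.5 CPM in Kedah-Kelantan, 7.54 and 11.8 CPM in Brangus, and 7.32 and 306 CPM in Holstein Friesian. The order of the 6 libraries was the same for HP and UCP2, with Holstein Friesian replicate 1 just below Brangus replicate 1 for both.

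UCP3 (chromosome 15, 53439744 to 53451115, minus strand), the next gene after UCP2 with 23498 bases between them, was at the limit of detection. The Kedah-Kelantan libraries held 5 and 4 UCP3 reads, the Brangus libraries 0 and 0, and the Holstein Friesian libraries 0 and 8. The exact 95% Poisson intervals were 1.62 to 11.7 and 1.09 to 10.2 counts in Kedah-Kelantan and 3.45 to 15.8 counts in Holstein Friesian replicate 2. Such intervals cover counting error only. With 3 counts taken as a limit for a count of 0, UCP3 could reach 0.128 and 0.129 CPM in Brangus and 0.101 CPM in Holstein Friesian replicate 1. The exact interval for a count of 0 reaches somewhat higher, to 3.69 counts. The highest value was 0.304 CPM, in Holstein Friesian replicate 2. Genes with 4 to 8 counts in 1 library had 0 in the other library of the breed in 18% of cases in Kedah-Kelantan blood, 47% in Brangus blood and 32.8% in Holstein Friesian blood. UCP3 was too low for the test, and with no low-count filter its edgeR adjusted p was 1 for Kedah-Kelantan and 0.715 for Brangus, each against Holstein Friesian, and 0.621 for Kedah-Kelantan against Brangus.

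The genes beside the UCP2 and UCP3 pair differed less between libraries than UCP2 or had few counts. C2CD3, a centriole gene on the UCP3 side, had 41.4 and 37.7 CPM in Kedah-Kelantan, 34.9 and 39.7 CPM in Brangus, and 33.4 and 43.7 CPM in Holstein Friesian, with a log2 fold change of 0.09 (SE 0.21) in Kedah-Kelantan against Brangus. As for UCP2, its lowest and highest libraries were Holstein Friesian replicates 1 and 2. PAAF1, a proteasome assembly factor on the UCP2 side, had 16.2 and 16.3 CPM, 22.2 and 21.2 CPM, and 19.3 and 15.4 CPM in the same order. Its log2 fold change in Kedah-Kelantan against Brangus was -0.42 (SE 0.22, edgeR adjusted p = 0.505), of opposite sign to that of UCP2. DNAJB13, which lies between PAAF1 and UCP2, had 7 and 8 reads in the Kedah-Kelantan libraries, 0 and 0 in the Brangus libraries, and 0 and 6 in the Holstein Friesian libraries, with a count in the same 3 libraries as UCP3. LOC132342342, described as cytochrome c oxidase subunit 6C-like, had at most 6 counts.

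SLC25A5 (chromosome X, 3852739 to 3855413, plus strand) was highest in Holstein Friesian, and its libraries of that breed were closer to each other than those of any other tested member. It had 59.1 and 63.7 CPM in Kedah-Kelantan, 52.6 and 57.8 CPM in Brangus, and 77.5 and 77.6 CPM in Holstein Friesian. The libraries of Holstein Friesian lay above all others, and those of Kedah-Kelantan lay above those of Brangus. In Kedah-Kelantan against Brangus, 64.2% of all genes tested did not overlap (33.5% higher, 30.7% lower). Of all genes tested, 30.7% did not overlap in Kedah-Kelantan against Holstein Friesian (18.1% higher, 12.6% lower), and 34.3% did not overlap in Brangus against Holstein Friesian (18.4% higher, 15.9% lower). In Brangus against Holstein Friesian the log2 fold change was -0.49 (SE 0.15, unadjusted p = 0.0224 and adjusted p = 0.645 by edgeR). For Kedah-Kelantan it was -0.34 against Holstein Friesian (SE 0.15, edgeR adjusted p = 0.995) and 0.15 against Brangus (SE 0.15, edgeR adjusted p = 0.732). Without Holstein Friesian replicate 1, SLC25A5 was called in Brangus against Holstein Friesian at -0.50 (with 31.3% of genes called). The value was -0.53 without replicate 2. Both fits keep 1 Holstein Friesian library and do not measure the spread within that breed, so the call does not show a breed difference.

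Its count was 2311 in replicate 1 and 2041 in replicate 2 of Holstein Friesian. Genes most like SLC25A5 in pattern were CCNY (cyclin Y), PANX1 (pannexin 1, a channel that releases ATP from cells) and SH3BP1, with Pearson correlations of 0.976, 0.975 and 0.975 over the 6 libraries. CCNY had 142 and 162 CPM in Kedah-Kelantan, 130 and 148 CPM in Brangus, and 185 and 178 CPM in Holstein Friesian.

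SLC25A4 (chromosome 27, 15489566 to 15493429, plus strand) differed more between the Holstein Friesian libraries than between breeds. It had 19.8 and 22.3 CPM in Kedah-Kelantan, 22.5 and 24.7 CPM in Brangus, and 29.7 and 15.6 CPM in Holstein Friesian. The Holstein Friesian libraries were the highest and the lowest of the 6, in the reverse of their order for UCP2. Kedah-Kelantan lay just below Brangus without overlap, as did 30.7% of all genes tested. The log2 fold change was -0.11 (SE 0.34) in Kedah-Kelantan against Holstein Friesian, 0.06 (SE 0.34) in Brangus against Holstein Friesian and -0.16 (SE 0.34) in Kedah-Kelantan against Brangus, with edgeR adjusted p of 0.995, 0.964 and 0.879. These signs turned with total counts as the only scaling, at 0.03, -0.07 and 0.10. In that setting the median of all genes was 0.12, -0.14 and 0.29. The genes most like SLC25A4 in pattern were TBCE, a cofactor of tubulin folding, PDXP, pyridoxal phosphatase, and ZFTA, with Pearson correlations of 0.997, 0.992 and 0.988.

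SLC25A6 (chromosome 26, 15191007 to 15195490, plus strand) was lowest in Holstein Friesian replicate 1. It had 77.4 and 95.5 CPM in Kedah-Kelantan, 93.9 and 67.5 CPM in Brangus, and 40.8 and 87.3 CPM in Holstein Friesian. All 3 breeds overlapped. The log2 fold change was 0.43 (SE 0.40, edgeR adjusted p = 0.995) in Kedah-Kelantan against Holstein Friesian, 0.33 (SE 0.40, edgeR adjusted p = 0.804) in Brangus against Holstein Friesian and 0.10 (SE 0.40, edgeR adjusted p = 0.946) in Kedah-Kelantan against Brangus. Without Holstein Friesian replicate 2, SLC25A6 was called against that breed at 1.04 in Kedah-Kelantan (11.9% of genes called) and 0.94 in Brangus (6.06% of genes called). Without replicate 1 the values were -0.01 and -0.12. Each of these fits keeps 1 Holstein Friesian library and takes its spread from the other breeds. Such a fit does not measure the spread between Holstein Friesian libraries, so its calls do not show a breed difference. The genes most like SLC25A6 in pattern were CDKN1A, the p21 inhibitor of the cell cycle, KLHL21 and CSRNP1, with Pearson correlations of 0.998, 0.963 and 0.961.

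Counts described as this carrier stood in the SLC25A6 row and in a second row, LOC132344463, which the table describes as ADP/ATP translocase 3, the protein of SLC25A6. LOC132344463 (736218 to 740740, minus strand) lies on a sequence not matched to a chromosome name here, between IL3RA and a gene described like ASMTL. The SLC25A6 row on chromosome 26 lies between ASMTL and a gene described as an interleukin-3 receptor alpha subunit, that is, between the same neighbours. In a reference gene table of another assembly (NIAB-ARS_B.indTharparkar_mat_pri_1.0), the only SLC25A6 lies between ASMTL and IL3RA on chromosome X. The lengths implied by the deposited counts and FPKM were 1348 bases for SLC25A6 and 1387 bases for LOC132344463. The sequences of these rows were not compared here, and how reads that map to both were counted is not given in the sources used here, so the level of each row is uncertain.

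LOC132344463 held most of the counts of the pair in every library. It had 161 and 219 CPM in Kedah-Kelantan, 284 and 268 CPM in Brangus, and 206 and 191 CPM in Holstein Friesian. Brangus lay above both other breeds without overlap, as did 18.4% of all genes tested against Holstein Friesian and 30.7% against Kedah-Kelantan. Its log2 fold change was 0.47 (SE 0.21, edgeR adjusted p = 0.659) in Brangus against Holstein Friesian, -0.54 (SE 0.21, edgeR adjusted p = 0.422) in Kedah-Kelantan against Brangus and -0.06 (SE 0.20, edgeR adjusted p = 0.995) in Kedah-Kelantan against Holstein Friesian. The value in Kedah-Kelantan against Brangus passed with only these 2 breeds in the fit (-0.53, SE 0.15, edgeR adjusted p = 0.043, with 19.3% of genes called). Without Holstein Friesian replicate 1 or 2 it was -0.53 and -0.54. Those fits take their spread from the same Kedah-Kelantan and Brangus libraries and add no separate support. Platelet markers were also higher in Brangus, at 298 and 345 CPM in Kedah-Kelantan, 1280 and 1410 CPM in Brangus, and 417 and 547 CPM in Holstein Friesian over 7 genes with none at 0. Erythroid markers, 8 genes of which 5 to 7 had a count, were higher in Brangus too, at 147 and 185 CPM in Kedah-Kelantan, 445 and 641 CPM in Brangus, and 100 and 232 CPM in Holstein Friesian. In Kedah-Kelantan against Brangus, 6 of 7 tested platelet markers and 4 of 5 tested erythroid markers had values below 0. Summed neutrophil, B and plasma cell and gamma delta T cell markers were also higher in Brangus than in Kedah-Kelantan, but overlapped between Brangus and Holstein Friesian. Monocyte, eosinophil and NK sums were lower in Brangus than in Kedah-Kelantan. The part of any of these cells in the LOC132344463 value was not tested.

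The share of the pair's reads in SLC25A6 differed between libraries beyond counting error. It was 32.4% and 30.4% in the Kedah-Kelantan libraries, 24.8% and 20.1% in the Brangus libraries, and 16.5% and 31.4% in the Holstein Friesian libraries. The exact 95% binomial interval was 15.7% to 17.4% in Holstein Friesian replicate 1 and 30.3% to 32.4% in replicate 2. With both rows added, the level was 239 and 314 CPM in Kedah-Kelantan, 378 and 335 CPM in Brangus, and 247 and 278 CPM in Holstein Friesian. Brangus lay above both other breeds in this sum, most of which is LOC132344463. Of all genes tested, 18.4% lay higher in Brangus without overlap against Holstein Friesian and 30.7% against Kedah-Kelantan. The log2 fold change of the sum was 0.44 (SE 0.21, edgeR adjusted p = 0.659) in Brangus against Holstein Friesian, -0.37 (SE 0.21, edgeR adjusted p = 0.531) in Kedah-Kelantan against Brangus and 0.07 (SE 0.21, edgeR adjusted p = 0.995) in Kedah-Kelantan against Holstein Friesian. In Kedah-Kelantan against Brangus the sum thus had the opposite sign to SLC25A6 alone (0.10). Another row described as ADP/ATP translocase 1, LOC787122 on chromosome 7, had 13 and 0 reads in the Kedah-Kelantan libraries, 0 and 0 in the Brangus libraries, and 4 and 3 in the Holstein Friesian libraries, and added little to SLC25A4.

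**Figure D4:**
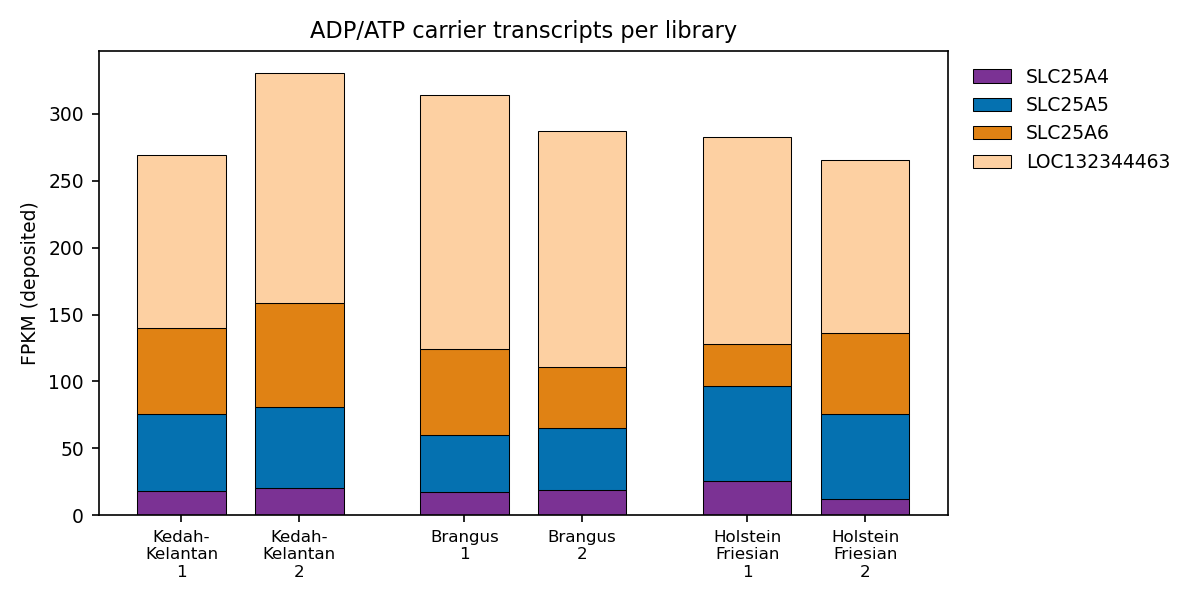
Deposited FPKM of SLC25A4, SLC25A5, SLC25A6 and the LOC132344463 row, stacked per library, with replicates 1 and 2 of each breed side by side. LOC132344463 is the largest part of every bar (129 to 189 FPKM) and SLC25A4 the smallest (12.3 to 25.9 FPKM).

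Within the 3 named ADP/ATP carriers, SLC25A5 took a larger share in both Holstein Friesian libraries than in the other 4, and SLC25A6 was lowest in Holstein Friesian replicate 1. This share of summed FPKM does not depend on the scaling of a library. SLC25A5 made up 41.1% and 38.3% in the Kedah-Kelantan libraries, 34.1% and 41.6% in the Brangus libraries, and 55.1% and 46.5% in the Holstein Friesian libraries. SLC25A6 made up 45.7% and 48.8% in the Kedah-Kelantan libraries, 51.8% and 41.3% in the Brangus libraries, and 24.6% and 44.5% in the Holstein Friesian libraries. SLC25A4 made up 13.2% and 12.9% in the Kedah-Kelantan libraries, 14% and 17.1% in the Brangus libraries, and 20.3% and 9.01% in the Holstein Friesian libraries. With the LOC copies added, SLC25A5 made up 21.3% and 18.4% in the Kedah-Kelantan libraries, 13.5% and 16.1% in the Brangus libraries, and 24.9% and 23.9% in the Holstein Friesian libraries. The Holstein Friesian libraries were then still the highest for SLC25A5, and SLC25A6 with its copy made up at least 65.9% in all libraries. These shares are a description of the libraries and were not tested.

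UCP2 exceeded the 3 named carriers together in every library. The log2 ratio of UCP2 to their summed FPKM was 1.63 and 1.64 in the Kedah-Kelantan libraries, 0.83 and 1.12 in the Brangus libraries, and 0.88 and 2.65 in the Holstein Friesian libraries. Kedah-Kelantan thus lay above Brangus in this ratio too, Holstein Friesian replicate 2 was the highest library, and replicate 1 lay between the Brangus libraries. With the LOC copies added to the carriers the ratio was 0.68 and 0.58 in the Kedah-Kelantan libraries, -0.51 and -0.25 in the Brangus libraries, and -0.27 and 1.69 in the Holstein Friesian libraries, so UCP2 was then below the carriers in both Brangus libraries and in Holstein Friesian replicate 1.

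Of the closest relatives of the members, none passed edgeR's test. UCP1, the thermogenic protein of brown fat, had 0 counts in all 6 libraries, and SLC25A31 (ANT4), the carrier of the testis, had 1 count in 1 library. SLC25A30, also called KMCP1, had 32.6 and 26.3 CPM in Kedah-Kelantan, 33.7 and 23.2 CPM in Brangus, and 40.9 and 29.8 CPM in Holstein Friesian. SLC25A14 (UCP5) averaged 4.99 ± 0.58 CPM, 4.42 ± 0.07 CPM and 4.77 ± 1.37 CPM in the same order (SD, n = 2 each), and SLC25A27 (UCP4) averaged 6.27 ± 0.09 CPM, 5.94 ± 1.56 CPM and 6.02 ± 2.82 CPM. Over these 3 tested relatives and 3 comparisons, log2 fold changes stayed between -0.31 and 0.18.

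Carriers that supply phosphate and exchange other nucleotides did not pass edgeR's test either. DESeq2 called SLC25A25 in Kedah-Kelantan against Brangus, where it called 4.99% of all genes. Of 8 such genes, 7 were tested, and the median log2 fold change was -0.05 in Kedah-Kelantan against Holstein Friesian, 0.04 in Brangus against Holstein Friesian and 0 in Kedah-Kelantan against Brangus, beside -0.03, -0.03 and 0.02 over all genes. SLC25A3, which imports the phosphate used to make ATP, had 174 and 190 CPM in Kedah-Kelantan, 233 and 226 CPM in Brangus, and 201 and 245 CPM in Holstein Friesian. SLC25A25, a calcium-regulated ATP-magnesium/phosphate carrier, had 31.9 and 32.9 CPM, 22.1 and 22.8 CPM, and 25.9 and 25.3 CPM in the same order. Its log2 fold change in Kedah-Kelantan against Brangus was 0.53 (SE 0.17, edgeR adjusted p = 0.386, DESeq2 adjusted p = 0.0466). SLC25A24 and SLC25A23, of the same carrier type, had values of 0.92 (SE 0.58) and 1.03 (SE 0.71) there.

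The kinases that pass on the phosphate of ATP gave 4 tested genes of 6 in the table, and none passed edgeR's test. All 4 had values below 0 in Kedah-Kelantan against Holstein Friesian (median -0.47), and 3 of 4 did when Holstein Friesian replicate 1 or replicate 2 was left out. AK3, the GTP-dependent kinase of the matrix, had 162 and 166 CPM in Kedah-Kelantan, 104 and 127 CPM in Brangus, and 75.7 and 381 CPM in Holstein Friesian, where its libraries differed in the same direction as for UCP2. AK4 had values of -0.66 (SE 0.66) in Kedah-Kelantan and -1.11 (SE 0.67) in Brangus against Holstein Friesian, and NME4 had -0.23 (SE 0.74) and 0.33 (SE 0.74).

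Outer membrane channels and partners of the permeability transition gave 10 tested genes, and edgeR called none. All 10 had values below 0 in Kedah-Kelantan against Holstein Friesian (median -0.27, beside -0.03 over all genes), and 5 of 10 had values below 0 in Kedah-Kelantan against Brangus (median 0, beside 0.02). The count of 10 against Holstein Friesian was 8 with upper quartile scaling, 7 with total counts only, 7 without Holstein Friesian replicate 1 and 5 without replicate 2, where the median was 0.04. ATP5IF1, the inhibitor that stops ATP synthase from running backwards, had 54.3 and 70.7 CPM in Kedah-Kelantan, 126 and 137 CPM in Brangus, and 81.2 and 63.8 CPM in Holstein Friesian. The log2 fold change of ATP5IF1 was -1.07 (SE 0.22) in Kedah-Kelantan against Brangus, with an adjusted p of 0.353 by edgeR and 0.00352 by DESeq2. DESeq2 called it there, as it called 4.99% of all genes. In Brangus against Holstein Friesian the value was 0.86 (SE 0.22, edgeR adjusted p = 0.642). VDAC2 and VDAC3, the outer membrane channels that ATP and ADP cross, had values of -0.48 (SE 0.19) and -0.64 (SE 0.25) in Kedah-Kelantan against Brangus, each with an edgeR adjusted p of 0.423. HK1, a hexokinase that binds these channels, had 0.81 (SE 0.51) there and -1.12 (SE 0.51) in Brangus against Holstein Friesian.

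Of the other SLC25 carriers 28 were tested, and none passed by edgeR. The median was 0.05 in Kedah-Kelantan against Holstein Friesian, -0.07 in Brangus against Holstein Friesian and 0.21 in Kedah-Kelantan against Brangus, where 17 of 28 were above 0. SLC25A20, which carries acylcarnitines into the matrix, had 19.6 and 19.4 CPM in Kedah-Kelantan, 35.6 and 28.3 CPM in Brangus, and 37.6 and 33.7 CPM in Holstein Friesian. The log2 fold change of SLC25A20 was -0.87 (SE 0.20) in Kedah-Kelantan against Holstein Friesian, with an adjusted p of 0.995 by edgeR and 0.0147 by DESeq2. It was -0.71 (SE 0.20) in Kedah-Kelantan against Brangus, with an adjusted p of 0.359 by edgeR and 0.0434 by DESeq2. SLC25A29, a carrier of basic amino acids, had 40.7 and 43.6 CPM, 19.7 and 11.9 CPM, and 23.2 and 39.2 CPM in the same order of breeds. Its log2 fold change in Kedah-Kelantan against Brangus was 1.41 (SE 0.36), with an adjusted p of 0.353 by edgeR and 0.03 by DESeq2. Of all genes, DESeq2 called 0.974% in Kedah-Kelantan against Holstein Friesian and 4.99% in Kedah-Kelantan against Brangus. SLC25A40 had 0.68 (SE 0.27) in Kedah-Kelantan against Holstein Friesian, and SLC25A44, the carrier of branched-chain amino acids, had -0.74 (SE 0.29) in Brangus against Holstein Friesian.

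Regulators of mitochondrial genes did not separate the breeds by this test. Of 20 listed genes 19 were tested, with medians of -0.02 for Kedah-Kelantan and -0.07 for Brangus, each against Holstein Friesian, and 0.06 for Kedah-Kelantan against Brangus. NRF1, a transcription factor of respiratory chain genes, averaged 53.0 ± 1.99 CPM in Kedah-Kelantan, 50.8 ± 3.25 CPM in Brangus and 40.7 ± 5.25 CPM in Holstein Friesian, and was 0.38 higher on the log2 scale in Kedah-Kelantan than in Holstein Friesian (SE 0.18, edgeR adjusted p = 0.995). PPARGC1B and PPRC1, coactivators of mitochondrial genes, had 0.63 (SE 0.35) and 0.27 (SE 0.17) in that comparison. PPARA, a fatty acid receptor known in rodents and humans to raise UCP and fatty acid oxidation genes, had -0.68 (SE 0.49) there and -0.94 (SE 0.49) in Brangus against Holstein Friesian.

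**Figure D5:**
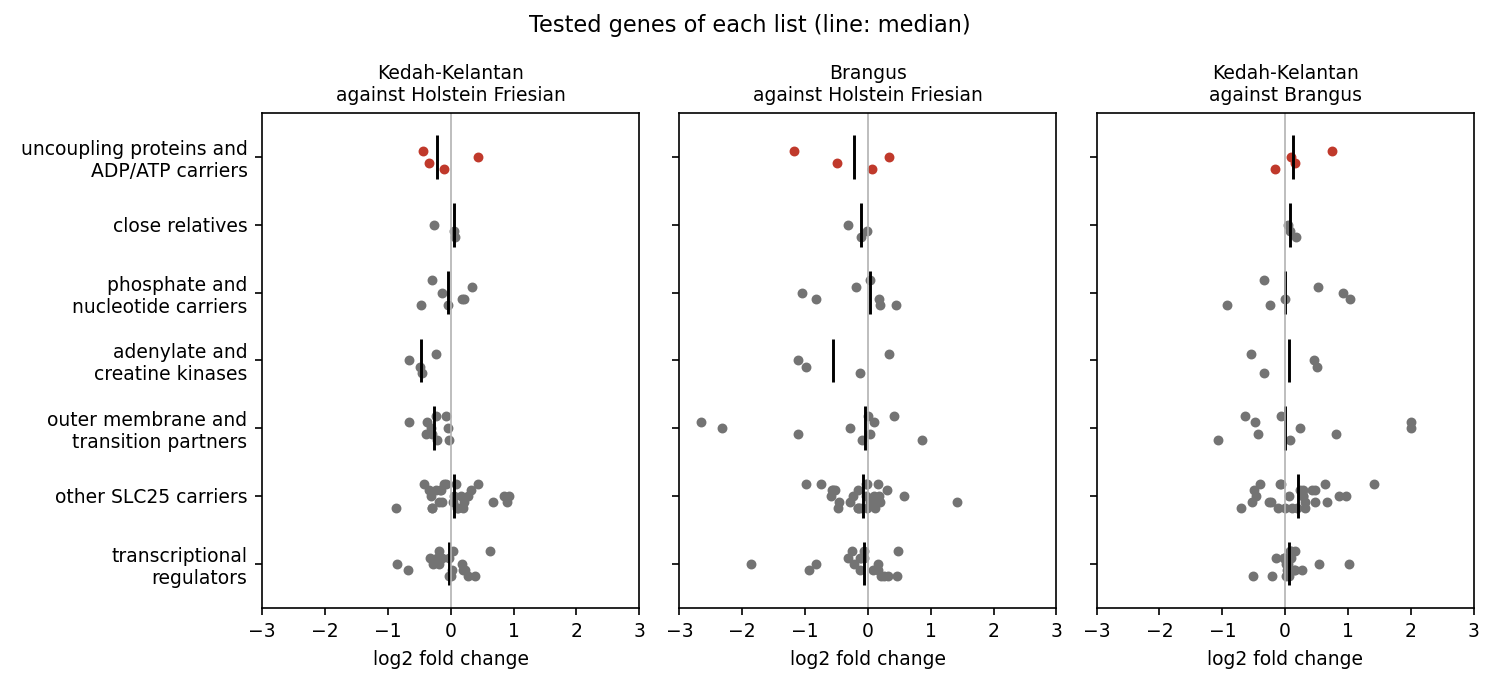
Log2 fold changes of all tested genes of the carriers (red) and of 6 lists of related mitochondrial genes (grey) in the 3 breed comparisons, positive where the first breed named is higher, with 1 point per gene and a line at each list's median. List medians lie between -0.55 and 0.21, and no gene shown passed edgeR's test.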

How the data were processed

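Whole-blood RNA of 3 breeds was sequenced with 2 libraries per breed. The labels' protocols give PrimeZOL extraction and an RIN over 7. Tools named in the submitters' processing notes are featureCounts 2.0.1, HISAT2 2.2.1, Trimmomatic 0.39 and DESeq2 1.38.0, with build ARS-UCD1.2. Whether counting used strand or multi-mapping reads is not given in the sources used here. Counts were deposited as whole reads per gene, with no normalisation. The deposited FPKM are these counts per gene length and library total: over 956 genes, the ratio deviated by at most 0.0143%. Positions are the authors' own. Chromosome names were assigned here by gene symbols shared with the reference gene table. In the tables, 261 genes lie on a sequence with too few shared symbols to be named this way, and no build is given with positions. Of 16311 symbols shared with the reference gene table, 99.8% of those on named chromosomes had the same chromosome name.

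Breeds were compared on counts by edgeR 4.0.16 under R 4.3.3 (TMM, filterByExpr, robust quasi-likelihood fit with breed as the only term over 6 libraries, 3 residual degrees of freedom), adjusted by Benjamini-Hochberg over 13455 genes. The common biological coefficient of variation was 0.431. SE is the log2 fold change over the square root of F. Alternatives used DESeq2 1.42.0 and limma 3.58.1 (voom, or log2 FPKM with a pseudocount of 0.1 or 1). The fit was tested on simulated data. The members and gene lists were chosen with earlier results of these data known. From each list, up to 4 tested genes with the smallest p were named, besides all relatives, ADP/ATP translocase copies, the 2 genes on either side of the UCP2 and UCP3 pair, and the 3 genes most correlated with each member. A gene that this rule names in the kinase list is not reported here. Genes without a count, or too low to test, stay in the table counts. Replicate numbers were not used to pair the samples in the main fit. The deviations of same-numbered libraries correlated at 0, 0.11 and 0.02 over the 3 pairs of breeds. Such correlations cannot show whether same-numbered libraries share a batch.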

Additional observations from a re-analysis of the deposited data

How the results depend on the processing

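No member passed under any normalization, low-count filter, unit, test, removal of haemoglobin genes or addition of the LOC copies. With only the 2 breeds compared, 1 member passed in Kedah-Kelantan against Brangus (UCP2). Leaving out 1 library gave 0 to 2 members called in Kedah-Kelantan against Holstein Friesian, 0 to 2 in Brangus against Holstein Friesian, 0 to 1 in Kedah-Kelantan against Brangus and 0 to 2 for any breed difference. Every such call came without a Holstein Friesian library, in a fit that takes no spread from that breed. Over all genes, these fits called 0 to 2464, 0 to 4395, 0 to 2458 and 0 to 4783 genes in the same order, beside 1, 1, 0 and 0 with all libraries. DESeq2 called 131, 313, 672 and 625 genes. In Kedah-Kelantan against Holstein Friesian 0 genes were called with a mean count of at least 50, limma-voom, the replicate block or only the 2 breeds, and 2 with log2(FPKM + 1). In Brangus against Holstein Friesian 0 were called in those 4 settings and with RLE factors. In Kedah-Kelantan against Brangus 2537 were called with only the 2 breeds. For any breed difference 1 was called without a filter and on either log2 FPKM scale. At an unadjusted p under 0.05, edgeR had 543, 1025, 1564 and 1107 genes. The replicate block changed no member's call.

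Signs turned as follows, and the causes were not tested. In Kedah-Kelantan against Holstein Friesian, UCP2 was 0.05 on both log2 FPKM scales and 0.86 without Holstein Friesian replicate 2. SLC25A4 was 0.03 with total counts only, 0.12 and 0.11 on the FPKM scales (pseudocounts 0.1 and 1) and 0.43 without Holstein Friesian replicate 1, SLC25A6 was -0.01 without that library, and LOC132344463 was 0.09 with total counts only, 0.08 on the FPKM scales and 0.14 without Kedah-Kelantan replicate 1. In Brangus against Holstein Friesian, UCP2 was 0.11 without Holstein Friesian replicate 2, SLC25A4 was -0.07 with total counts only, -0.05 without Brangus replicate 2 and -0.37 without Holstein Friesian replicate 2, and SLC25A6 was -0.12 without Holstein Friesian replicate 1. In Kedah-Kelantan against Brangus, SLC25A4 was 0.10 with total counts only and 0.10 and 0.09 on the FPKM scales, and SLC25A6 was -0.37 with LOC132344463 added, -0.05 when Kedah-Kelantan replicate 2 was left out and -0.12 when Brangus replicate 2 was. Leaving out 1 library at a time gave, in Kedah-Kelantan against Holstein Friesian, -1.11 to 0.86 for UCP2, -0.54 to 0.43 for SLC25A4, -0.01 to 1.04 for SLC25A6 and -0.30 to 0.14 for LOC132344463. In Brangus against Holstein Friesian it gave -1.87 to 0.11 for UCP2, -0.37 to 0.59 for SLC25A4 and -0.12 to 0.94 for SLC25A6, and in Kedah-Kelantan against Brangus -0.12 to 0.35 for SLC25A6. SLC25A5 kept its sign in all 3 comparisons under all 19 alternatives, and so did UCP2 in Kedah-Kelantan against Brangus (0.64 to 1.00). The median of all genes in Kedah-Kelantan against Holstein Friesian and against Brangus was 0.18 and 0.28 on the log2(FPKM + 0.1) scale and 0.12 and 0.19 on the log2(FPKM + 1) scale, beside -0.03 and 0.02 in the TMM-scaled counts. A left-out fit gives the lone library of a breed the spread of the others. Counts of UCP3 are too few to compare breeds.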

Other observations

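Neighbours of SLC25A6 on chromosome 26 also had rows of like description on the sequence that holds LOC132344463. In both Brangus libraries their chromosome 26 rows held a smaller share of each pair than SLC25A6 held of its own. The pairs rest on gene descriptions and order, and their sequences were not compared. These genes were chosen after their values were seen. For ASMTL and LOC132344461, described as a bifunctional pyrophosphatase/methyltransferase, the chromosome 26 row held 15.3% and 23.1% of the pair's counts in the Kedah-Kelantan libraries, 0.82% and 6.01% in the Brangus libraries, and 19.8% and 27.8% in the Holstein Friesian libraries. For the P2Y purinoceptor 8-like rows LOC112444479 and LOC132344462 it held 29.3% and 28.3% in the Kedah-Kelantan libraries, 1.18% and 4.74% in the Brangus libraries, and 5.32% and 5.25% in the Holstein Friesian libraries. Both Brangus libraries had lower shares than the other 4 in both pairs, and the exact 95% binomial intervals of the P2Y pair were 25.7% to 33.1% in Kedah-Kelantan replicate 1 and 0.476% to 2.42% in Brangus replicate 1. The P2Y interval of Brangus replicate 2 (3.32% to 6.53%) overlapped those of both Holstein Friesian libraries. The P2Y intervals of both Kedah-Kelantan libraries and the ASMTL intervals of both Holstein Friesian libraries overlapped those of SLC25A6 in the same libraries. All 5 gene symbols that this sequence shares with the reference gene table are on chromosome X there.

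Hexokinases 2 and 3, which start glycolysis, were higher in Kedah-Kelantan than in Brangus in every library, as were 33.5% of all genes tested. UCP2 had this order too, and like UCP2 both were highest in Holstein Friesian replicate 2. They were also chosen after their values were seen. HK3 had 142 and 139 CPM in Kedah-Kelantan, 31.6 and 38.5 CPM in Brangus, and 16.2 and 429 CPM in Holstein Friesian. HK2 had 54.7 and 52.4 CPM, 14 and 12.7 CPM, and 10 and 124 CPM in the same order. Their log2 fold changes in Kedah-Kelantan against Brangus were both 2.00 (SE 1.31 for HK3 and 1.07 for HK2), and neither passed edgeR's test.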
